A study of Mus musculus with 12 samples.

Results

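DNA break repair and checkpoint genes were followed in naive and germinal center (GC) B cells of mouse spleen. The set is a fixed list of 48 symbols, looked up by name in the deposited expression table, where all 48 were found among 24063 genes. For a symbol with several transcripts the one of highest mean was used. The 12 libraries, 3 in each of 4 groups, were sequenced as RNA, and expression is given as RPKM, reads per kilobase of transcript relative to the size of the library. The authors scaled each library to 10000000, which is above the usual RPKM total, so the values run higher than RPKM elsewhere and are comparable between genes of different length. All mice were C57BL/6. B-KO mice carry a floxed miR-146a allele deleted by CD21-cre, a transgene active in mature B cells, and WT littermates kept the microRNA. GC B cells (B220+PNA+GL7+) were sorted from B-KO and WT mice at day 14 after an injection of sheep red blood cells (SRBC). Naive B cells were the B220+ cells of unimmunized B-KO and WT mice, a gate that selects B cells but does not remove GC cells. The mice were 8 to 10 weeks old. The 3 libraries of a group are biological replicates by the methods of the study, and whether one of them pools several mice is not given in the sources used here.

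Double-strand breaks are among the most toxic DNA lesions, and GC B cells both divide quickly and break their own antibody genes. Broken ends are sensed by the MRE11-RAD50-NBS1 complex and the kinases ATM and ATR, which phosphorylate H2AX and stop the cell cycle through CHK1, CHK2 and p53. Repair then follows one of several routes, of which homologous recombination copies an intact sister chromatid and needs replicated DNA, whereas classical end joining ligates the ends directly, at any stage of the cycle, and also completes class switch recombination.

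Most of the list was more abundant in GC than in naive B cells of either genotype, led by recombination genes and the checkpoint kinase gene Chek1, while a small group that includes Atr and the damage sensor gene Xpc was lower. In a limma fit on log2(RPKM + 1) over all 12 libraries, with p adjusted over 13704 genes at a threshold of 0.05, 33 of 48 members were called higher and 4 lower in B-KO GC than in B-KO naive B cells. Of all genes tested, 30.0% were called higher and 27.5% lower in this comparison. In WT mice 33 members were called higher and 7 lower in GC B cells, beside 31.7% higher and 30.2% lower of all genes. The median log2 difference of the 48 members was 0.60 in B-KO mice and 0.72 in WT mice, where the medians of all genes were 0.02 and 0.01. The calls coincided for 32 members that were higher in both genotypes and for 4 that were lower in both (Atr, Mdm4, Wrn and Xpc), and 7 members passed in neither. All 3 GC libraries lay above all 3 naive libraries for 34 members in B-KO mice, against 33.4% of all genes, and for 34 in WT mice, against 34.2%. They lay below for 8 members in B-KO mice, against 30.7% of all genes, and for 8 in WT mice, against 33.1%. Means of GC libraries were over 4-fold those of naive libraries for 8 members in B-KO mice and 9 in WT mice, and over 2-fold for 20 and 21. The shares of all genes with such folds, and with calls that coincide in both genotypes, were not counted. In bulk libraries more cells that carry a transcript and more transcript per cell cannot be told apart.

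**Figure D1:**
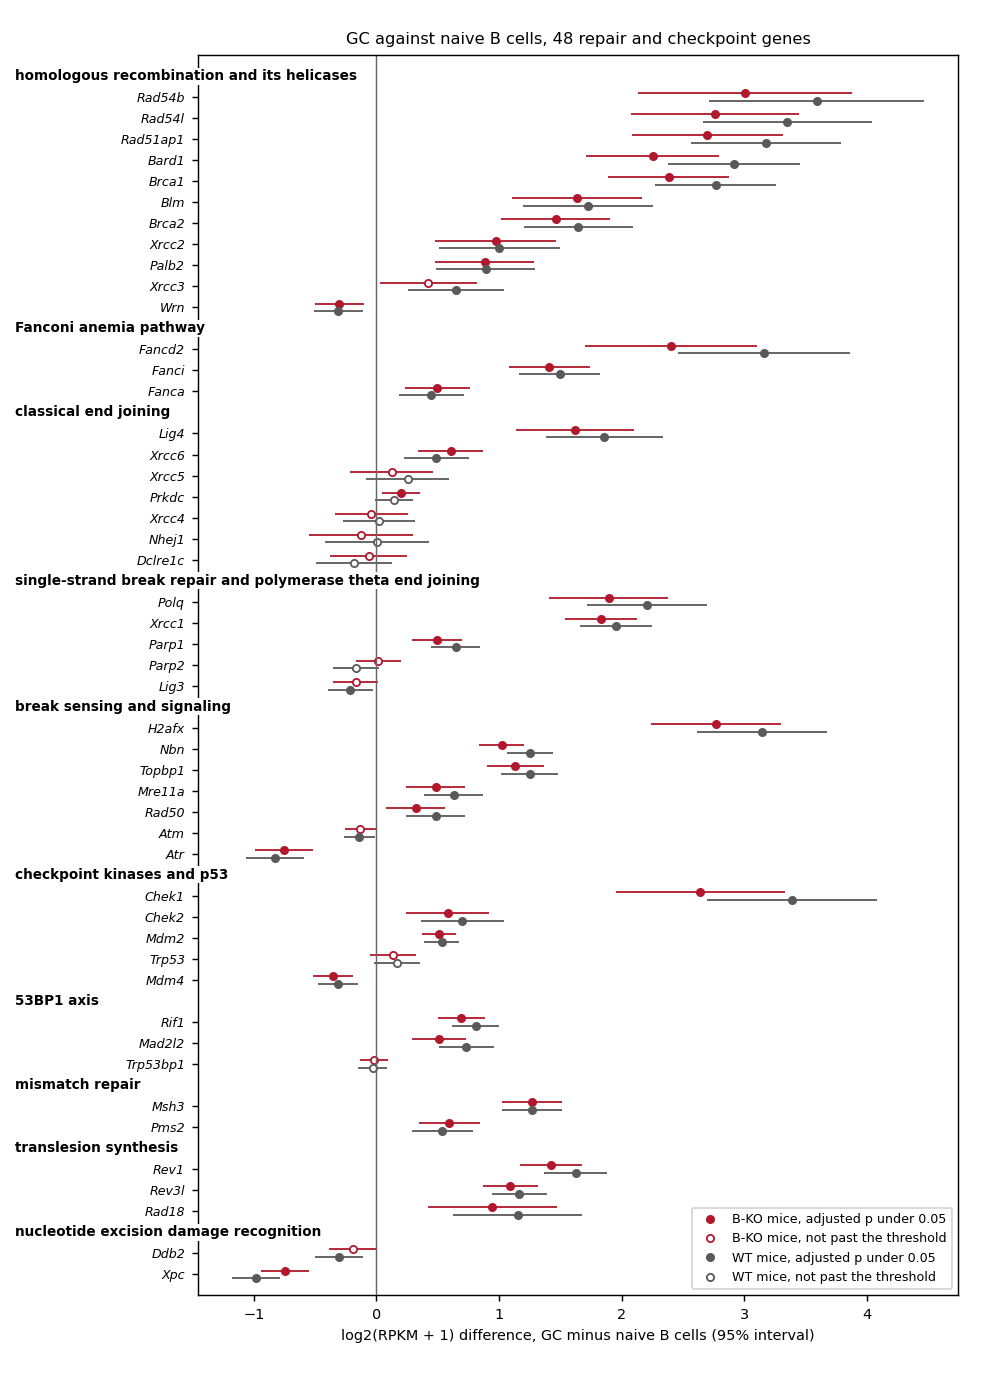
Log2(RPKM + 1) difference of GC minus naive B cells on the horizontal axis for the 48 members, grouped by role, in B-KO mice (red, upper point of each pair) and WT mice (gray, lower point). Points are limma estimates from 3 libraries a group, lines are 95% intervals and filled points passed an adjusted p of 0.05. Values run from -0.76 (Atr) to 3.01 (Rad54b) in B-KO mice and from -0.98 (Xpc) to 3.59 (Rad54b) in WT mice.

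Several facts of the libraries touch these values. Reads recovered on transcripts summed to 22945634 to 39118224 per library, of which 37.6% lay on further transcripts of genes with several. Reads in exons that transcripts share can enter more than 1 of them, so these sums can exceed the reads of a library. The least covered value of any member, Rad54b in 1 library, rests on 31 reads. The B cell markers Cd79a, Cd79b, Ms4a1, Cd22, Pax5 and Ptprc were all above 1 RPKM in every library, with sums of 23360 to 27030 RPKM in GC and 28690 to 38590 RPKM in naive libraries. Sums of 8 GC B cell markers were 7380, 5913 and 8728 RPKM in B-KO GC libraries against 1297, 691 and 428 RPKM in B-KO naive libraries, and 7123 to 8934 RPKM in WT GC libraries against 280.2 to 481 RPKM in WT naive libraries. Naive B-KO replicates 1 and 2 were the highest naive libraries for these markers. B-KO GC replicate 2 and WT GC replicate 3 carried more RNA of 7 naive follicular markers, 3712 and 2694 RPKM beside 1403 to 1666 RPKM in the other 4 GC libraries. The 4 Y-linked genes Ddx3y, Eif2s3y, Kdm5d and Uty summed to 671 to 1175 RPKM in B-KO GC replicates 1 and 2 and WT GC replicate 3 and to at most 0.337 RPKM in the other 9 libraries, which include all naive ones. Of 9 measured myeloid markers 7 to 9 were at 1 RPKM or more in each library, with sums of 209 to 612 RPKM in B-KO GC against 114 to 153 RPKM in B-KO naive libraries and 154 to 400.1 RPKM in WT GC against 86.9 to 125 RPKM in WT naive libraries. Of 8 measured T cell markers 6 to 8 were at 1 RPKM or more, with sums of 362 to 736 RPKM in GC and 177 to 283 RPKM in naive libraries. Of 5 measured plasma cell markers all were at 1 RPKM or more in every library. Their sums were 1419 RPKM in B-KO GC replicate 2 and 1236 RPKM in WT GC replicate 3, beside 672 to 763 RPKM in the other 4 GC libraries and 749 to 1008 RPKM in naive libraries. Of 9 erythroid and platelet markers 5 to 9 were at 1 RPKM or more. They summed to 212 to 314 RPKM in B-KO GC against 716 to 1304 RPKM in B-KO naive libraries and 64.1 to 409.6 RPKM in WT GC against 445 to 545 RPKM in WT naive libraries. Of 8 stromal markers 2 to 3 were at 1 RPKM or more, and they summed to 474 to 1083 RPKM in GC and 1311 to 1895 RPKM in naive libraries. The 8 include Cr2, the gene of CD21, which mature B cells also express, so these sums do not measure stromal RNA alone. The part of any of these cells in the results was not tested. In alternatives added after seeing the data, the members called higher and lower numbered 35 and 5 in B-KO mice and 35 and 6 in WT mice without B-KO GC replicate 2 and WT GC replicate 3. They numbered 34 and 4 in B-KO mice and 35 and 6 in WT mice without the 3 GC libraries that hold Y-linked RNA. Without naive B-KO replicates 1 and 2 they numbered 30 and 2 in B-KO mice and 33 and 5 in WT mice. With a single B-KO library left in a group, the spread of that library is taken from the other groups.

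The promoters of the members were read for sequence that the genes higher in GC B cells share. Windows of 250 bases before to 50 after the transcript start were taken from RefSeq (GRCm38.p6) and matched 36 of the 48 symbols. Fancd2, Xpc, Rif1, Rev3l, Ddb2, Xrcc2, Rad54b, H2afx, Rad50, Wrn, Prkdc and Nbn had no entry. Motifs of the type bound by E2F factors at promoters of S phase genes were searched as TTTGGCGC, TTTCCCGC, TTTCGCGC and TTTGCCGC on both strands. They occurred in 6 of the 36 members (16.7%), in 704 of 27025 genes with a window (2.61%), in 6 of the 25 matched members called higher in WT GC B cells and in 0 of the other 11. The 6 are Brca2, Bard1, Xrcc6, Topbp1, Chek2 and Msh3. The cell cycle element CHR, searched as TTTGAA on both strands, occurred in 2 members (Bard1 and Polq, 5.56%), against 20.2% of genes, and CCAAT, the NF-Y box, in 18 members (50%), against 41.1% of genes. The 4 windows with an E2F-type match and the largest WT differences are printed 5′ to 3′ on the strand of the gene, with the matched letters of either strand in capitals, and in Bard1 the CHR letters as well. In Msh3 a pair of matches on opposite strands overlaps, and the match of Bard1 starts 209 bases before the transcript start, that of Topbp1 129, that of Brca2 168 and the first of Msh3 202. These matches describe letters and are not measured binding sites.
Bard1 promoter, chr1:71102923-71103222, minus strand: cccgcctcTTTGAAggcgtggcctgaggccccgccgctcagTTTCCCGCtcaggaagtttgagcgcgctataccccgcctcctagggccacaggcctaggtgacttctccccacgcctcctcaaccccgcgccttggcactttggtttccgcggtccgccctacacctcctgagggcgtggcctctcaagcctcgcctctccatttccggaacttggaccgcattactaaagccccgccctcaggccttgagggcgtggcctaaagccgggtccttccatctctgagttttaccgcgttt
Brca2 promoter, chr5:150522371-150522670, plus strand: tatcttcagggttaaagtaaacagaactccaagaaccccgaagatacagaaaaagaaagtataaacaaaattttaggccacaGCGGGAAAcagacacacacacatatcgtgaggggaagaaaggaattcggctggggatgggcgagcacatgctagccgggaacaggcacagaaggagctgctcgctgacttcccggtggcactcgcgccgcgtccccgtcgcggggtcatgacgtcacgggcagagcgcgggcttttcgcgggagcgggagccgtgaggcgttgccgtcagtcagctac
Msh3 promoter, chr13:92354954-92355253, minus strand: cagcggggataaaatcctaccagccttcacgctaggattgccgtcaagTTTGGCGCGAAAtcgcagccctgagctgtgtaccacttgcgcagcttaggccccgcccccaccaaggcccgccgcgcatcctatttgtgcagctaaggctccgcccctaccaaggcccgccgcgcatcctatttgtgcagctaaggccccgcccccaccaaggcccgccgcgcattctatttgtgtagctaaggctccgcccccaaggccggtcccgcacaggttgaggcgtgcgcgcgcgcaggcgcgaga
Topbp1 promoter, chr9:103305077-103305376, plus strand: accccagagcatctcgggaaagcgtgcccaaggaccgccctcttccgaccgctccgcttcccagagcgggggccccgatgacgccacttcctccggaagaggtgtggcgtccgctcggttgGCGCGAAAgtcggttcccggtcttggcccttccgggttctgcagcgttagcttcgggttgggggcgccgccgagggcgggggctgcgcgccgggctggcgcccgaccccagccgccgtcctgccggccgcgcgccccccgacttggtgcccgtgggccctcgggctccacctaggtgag

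Most homologous recombination genes were higher in GC B cells, and Rad54b had the largest difference of the 48 members in both genotypes. Of 11, 9 were called higher and 1 lower in B-KO mice and 10 higher and 1 lower in WT mice, with medians of 1.63 and 1.73. The shares called higher were 81.8% in B-KO mice and 90.9% in WT mice, beside 30.0% and 31.7% of all genes. Rad54b and Rad54l encode motor proteins that act in the invasion of the sister chromatid. Rad54b was at 95.5, 65.5 and 113 RPKM in B-KO GC libraries, against 19.6, 11.1 and 4.65 RPKM in B-KO naive libraries, and at 104, 113 and 73.3 RPKM in WT GC libraries, against 5.98, 6.32 and 9.01 RPKM in WT naive libraries. For Rad54b the log2 difference was 3.01 in B-KO mice (standard error 0.40, adjusted p = 0.000103) and 3.59 in WT mice (standard error 0.40, adjusted p = 2.11e-05). Every GC library was far above every naive library, although the naive B-KO values themselves spread widely. Of the exon bases of Rad54b 35.8% are shared with Fsbp on the same strand, and reads there cannot be told apart. This share and those of other genes below refer to all annotated exons of a gene (GENCODE vM21). The share within the counted transcript was not computed. Rad54l was at 186, 139 and 222 RPKM in B-KO GC libraries, against 39.0, 25.3 and 16.8 RPKM in B-KO naive libraries, and at 207, 223 and 126 RPKM in WT GC libraries, against 12.6, 18.6 and 19.8 RPKM in WT naive libraries. Rad54l thus differed on the log2 scale by 2.76 in B-KO mice (standard error 0.31, adjusted p = 4.35e-05) and 3.35 in WT mice (standard error 0.31, adjusted p = 7.67e-06). Rad54l shares 15.4% of its exon bases with the opposite-strand gene Lrrc41, and both strands were counted. Rad51ap1 was at 189.5, 159 and 242 RPKM in B-KO GC libraries, against 42.7, 29.1 and 19.6 RPKM in B-KO naive libraries, and at 224, 245 and 139 RPKM in WT GC libraries, against 22.1, 18.1 and 22.8 RPKM in WT naive libraries. On the log2 scale Rad51ap1 differed by 2.70 in B-KO mice (standard error 0.28, adjusted p = 2.57e-05) and 3.18 in WT mice (standard error 0.28, adjusted p = 5.49e-06). Rad51ap1, which encodes a stimulator of strand exchange, again had B-KO GC replicate 2 and WT GC replicate 3 lowest in their groups.

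The BRCA1-BARD1 ubiquitin ligase, which promotes resection, showed the same pattern in both of its subunits. Brca1 was at 151, 119 and 162 RPKM in B-KO GC libraries, against 34.5, 28.5 and 18.9 RPKM in B-KO naive libraries, and at 159, 176 and 112 RPKM in WT GC libraries, against 19.0, 19.9 and 23.3 RPKM in WT naive libraries. GC minus naive, the log2 difference of Brca1 was 2.38 in B-KO mice (standard error 0.22, adjusted p = 1.60e-05) and 2.77 in WT mice (standard error 0.22, adjusted p = 3.86e-06). Bard1 was at 94.0, 71.7 and 101 RPKM in B-KO GC libraries, against 23.6, 17.5 and 13.4 RPKM in B-KO naive libraries, and at 107, 107 and 64.1 RPKM in WT GC libraries, against 9.17, 12.1 and 12.2 RPKM in WT naive libraries. The GC values of both genes were far above the naive values, and naive B-KO replicate 1 was the highest naive library for both. In the limma fit Bard1 differed by 2.25 in B-KO mice (standard error 0.24, adjusted p = 3.41e-05) and 2.92 in WT mice (standard error 0.24, adjusted p = 4.39e-06). Brca2 was at 42.0, 32.7 and 49.4 RPKM in B-KO GC libraries, against 17.1, 14.4 and 11.5 RPKM in B-KO naive libraries, and at 52.1, 50.3 and 34.9 RPKM in WT GC libraries, against 14.5, 14.3 and 12.5 RPKM in WT naive libraries. The fitted difference of Brca2 (log2) was 1.46 in B-KO mice (standard error 0.20, adjusted p = 0.000136) and 1.65 in WT mice (standard error 0.20, adjusted p = 4.30e-05). Brca2, which encodes a mediator of recombination, was the member of lowest mean level, 28.8 RPKM over the 12 libraries, and its GC libraries still lay above all naive libraries. Palb2, which bridges BRCA1 and BRCA2, differed by 0.88 in B-KO mice and 0.89 in WT mice. Xrcc2 was at 47.6, 41.8 and 63.2 RPKM in B-KO GC libraries, against 24.8, 29.0 and 21.7 RPKM in B-KO naive libraries, and at 64.5, 64.1 and 36.1 RPKM in WT GC libraries, against 27.6, 26.0 and 24.4 RPKM in WT naive libraries. This gave Xrcc2 a log2 difference of 0.97 in B-KO mice (standard error 0.22, adjusted p = 0.00337) and 1.003 in WT mice (standard error 0.22, adjusted p = 0.00246). Xrcc2 and Xrcc3 encode strand exchange cofactors, and Xrcc3 was called in WT mice (log2 difference 0.65, adjusted p = 0.0085) and missed the threshold in B-KO mice (0.42, adjusted p = 0.0621), where it was called higher without WT GC replicate 3, a library that enters only through the shared spread. The 2 RecQ helicase genes parted. Blm, mutated in Bloom syndrome, differed by 1.63 in B-KO and 1.73 in WT mice, both called higher. Wrn was at 72.2, 71.8 and 72.2 RPKM in B-KO GC libraries, against 89.0, 90.1 and 88.4 RPKM in B-KO naive libraries, and at 76.1, 77.4 and 60.6 RPKM in WT GC libraries, against 89.1, 85.0 and 90.8 RPKM in WT naive libraries. The log2 difference of Wrn was -0.30 in B-KO mice (standard error 0.09, adjusted p = 0.0138) and -0.31 in WT mice (standard error 0.09, adjusted p = 0.011). Wrn, mutated in Werner syndrome, was called lower in both genotypes, and WT GC replicate 3 was the lowest library.

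**Figure D2:**
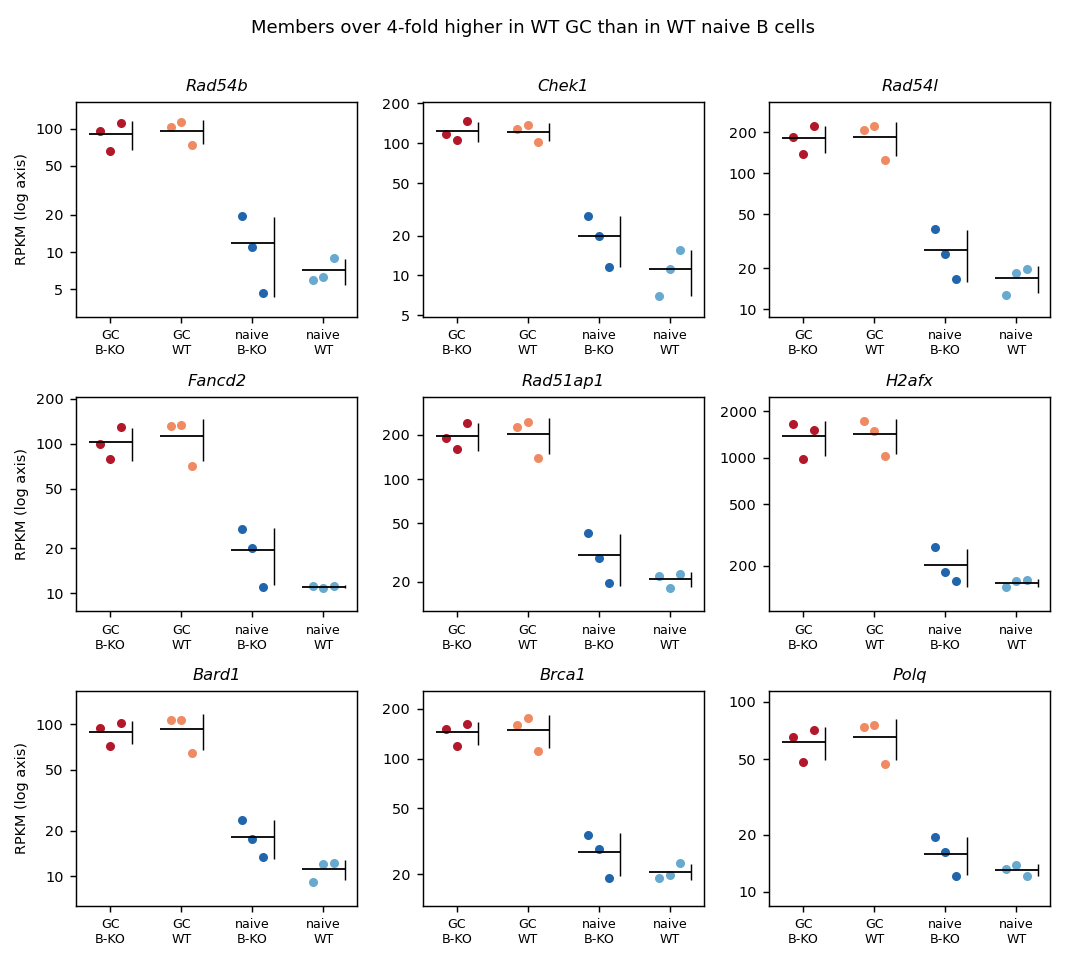
RPKM on a log axis for the 9 members whose WT GC mean was over 4-fold the WT naive mean, in the 3 libraries of GC B-KO, GC WT, naive B-KO and naive WT B cells. Points are libraries 1 to 3 from left to right, horizontal lines are means and vertical lines span 1 SD on either side. For Chek1 the GC points lie between 102 and 146.3 RPKM and the naive points between 6.98 and 28.2 RPKM.

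The Fanconi anemia pathway, which unhooks crosslinks between DNA strands, was called higher with all 3 of its members in both genotypes. Beside this, 30.0% of all genes were called higher in B-KO mice and 31.7% in WT mice. Fancd2 was at 98.8, 78.7 and 129 RPKM in B-KO GC libraries, against 27.0, 20.04 and 11.0 RPKM in B-KO naive libraries, and at 131, 133 and 71.0 RPKM in WT GC libraries, against 11.2, 10.9 and 11.2 RPKM in WT naive libraries. For Fancd2 the log2 difference was 2.40 in B-KO mice (standard error 0.32, adjusted p = 0.000105) and 3.16 in WT mice (standard error 0.32, adjusted p = 1.18e-05). FANCD2 and FANCI form the pair that is monoubiquitinated at a lesion, and the 3 WT naive values of Fancd2 lay close together while the B-KO naive values spread. Fanci was at 159, 129.7 and 175 RPKM in B-KO GC libraries, against 58.3, 61.1 and 52.4 RPKM in B-KO naive libraries, and at 163, 175 and 118 RPKM in WT GC libraries, against 50.1, 50.9 and 57.1 RPKM in WT naive libraries. Fanci thus differed on the log2 scale by 1.41 in B-KO mice (standard error 0.15, adjusted p = 3.07e-05) and 1.49 in WT mice (standard error 0.15, adjusted p = 1.19e-05). Fanca was at 156, 131 and 156 RPKM in B-KO GC libraries, against 88.2, 114 and 112 RPKM in B-KO naive libraries, and at 153, 156 and 134 RPKM in WT GC libraries, against 96.1, 112 and 116 RPKM in WT naive libraries. Fanca, a gene of the core ubiquitin ligase complex, was the most abundant of the 3 in naive libraries. On the log2 scale Fanca differed by 0.50 in B-KO mice (standard error 0.12, adjusted p = 0.00463) and 0.45 in WT mice (standard error 0.12, adjusted p = 0.00722). Exons of Fanci and Fanca overlap opposite-strand genes, Polg over 16.0% of the bases and Zfp276 over 10.5%.

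Of the 7 genes of classical end joining, 3 were called higher in B-KO mice and 2 in WT mice, none lower. Those shares, 42.9% and 28.6%, stand beside 30.0% and 31.7% of all genes called higher. In WT mice the group thus had no more calls than genes at large. Their median log2 difference was 0.12 in B-KO mice, beside 0.015 over all genes, and 0.14 in WT mice, beside 0.0054 over all genes. Lig4 was at 123, 102 and 158 RPKM in B-KO GC libraries, against 45.1, 41.9 and 34.4 RPKM in B-KO naive libraries, and at 158, 161 and 92.2 RPKM in WT GC libraries, against 35.6, 33.1 and 39.3 RPKM in WT naive libraries. GC minus naive, the log2 difference of Lig4 was 1.62 in B-KO mice (standard error 0.22, adjusted p = 0.000117) and 1.86 in WT mice (standard error 0.22, adjusted p = 3.13e-05). Lig4, which encodes the ligase of this route, was the member of the group with a difference over 1 on the log2 scale. Xrcc4, which encodes the partner that stabilizes that ligase, was at 58.8 ± 4.20 (SD, n = 3) RPKM in B-KO GC and 60.9 ± 7.88 (SD, n = 3) RPKM in B-KO naive libraries, and at 61.7 ± 5.69 (SD, n = 3) RPKM in WT GC and 61.2 ± 9.57 (SD, n = 3) RPKM in WT naive libraries. Its log2 difference was -0.04 in B-KO mice (95% interval -0.34 to 0.25) and 0.02 in WT mice (95% interval -0.28 to 0.32). Xrcc6 was at 234, 222 and 282 RPKM in B-KO GC libraries, against 152, 169 and 161 RPKM in B-KO naive libraries, and at 240, 266 and 199.5 RPKM in WT GC libraries, against 161, 153 and 186 RPKM in WT naive libraries. In the limma fit Xrcc6 differed by 0.61 in B-KO mice (standard error 0.12, adjusted p = 0.00137) and 0.49 in WT mice (standard error 0.12, adjusted p = 0.00452). The Ku heterodimer that binds the ends is made from Xrcc6 (Ku70), called higher in both genotypes, and Xrcc5 (Ku80), called in neither. Xrcc5 was at 109, 99.1 and 130.2 RPKM in B-KO GC libraries, against 103, 102 and 103 RPKM in B-KO naive libraries, and at 126, 141 and 90.0 RPKM in WT GC libraries, against 104, 87.9 and 102 RPKM in WT naive libraries. The fitted difference of Xrcc5 (log2) was 0.12 in B-KO mice (standard error 0.15, adjusted p = 0.507) and 0.25 in WT mice (standard error 0.15, adjusted p = 0.171). WT GC replicate 3 had the lowest Xrcc5 of the GC libraries and fell within the WT naive range. B-KO GC replicate 2 lay below its naive libraries. Without WT GC replicate 3 Xrcc5 was called higher in WT mice. Without the 3 GC libraries that hold Y-linked RNA it was called higher in both genotypes. Prkdc, the gene of the DNA-dependent kinase, was called in B-KO mice alone (0.20, adjusted p = 0.0275, against 0.14, adjusted p = 0.0931 in WT mice), and the difference between the genotypes was 0.06 (adjusted p = 1). The Prkdc call in B-KO mice was lost without GC replicate 1, without GC replicate 2 or without naive replicate 3. Nhej1, which encodes the scaffold XLF, and Dclre1c, which encodes the nuclease Artemis, were called in neither genotype, with 95% intervals of -0.55 to 0.30 and -0.38 to 0.25 in B-KO mice and -0.42 to 0.43 and -0.50 to 0.13 in WT mice. Dclre1c was at 68.7, 112 and 81.0 RPKM in B-KO GC libraries, against 85.1, 94.4 and 89.1 RPKM in B-KO naive libraries, and at 77.7, 77.1 and 85.0 RPKM in WT GC libraries, against 88.9, 92.3 and 91.4 RPKM in WT naive libraries. B-KO GC replicate 2 was the highest of all 12 libraries for Dclre1c, and the 3 WT GC libraries lay below the 3 WT naive libraries. Without B-KO GC replicate 2 Dclre1c was called lower in B-KO mice (log2 difference -0.26, adjusted p = 0.0347). Without that library and WT GC replicate 3 it was called lower in both genotypes. With every transcript in the limma fit, another Dclre1c transcript, NM_001110214, was called lower in WT mice (-0.32, adjusted p = 0.0498). In B-KO mice it differed by -0.31 (adjusted p = 0.0621). A further transcript, NM_175683, differed by -0.255 in WT and -0.253 in B-KO mice and was called in neither.

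Single-strand break repair and polymerase theta end joining held 2 of the 3 most abundant members. Parp1 was at 1102, 954 and 1210.3 RPKM in B-KO GC libraries, against 798, 723 and 788 RPKM in B-KO naive libraries, and at 1304, 1217 and 1106 RPKM in WT GC libraries, against 758, 789 and 765 RPKM in WT naive libraries. This gave Parp1 a log2 difference of 0.49 in B-KO mice (standard error 0.09, adjusted p = 0.000877) and 0.65 in WT mice (standard error 0.09, adjusted p = 0.000116). Parp1, the gene of the poly(ADP-ribose) polymerase that detects nicks, had the highest mean of the list, 959 RPKM over all libraries. Xrcc1 was at 1186, 822 and 992 RPKM in B-KO GC libraries, against 321, 274 and 243 RPKM in B-KO naive libraries, and at 1022, 1008 and 867 RPKM in WT GC libraries, against 238, 250.5 and 256 RPKM in WT naive libraries. The log2 difference of Xrcc1 was 1.83 in B-KO mice (standard error 0.13, adjusted p = 7.48e-06) and 1.95 in WT mice (standard error 0.13, adjusted p = 2.36e-06). Xrcc1, the scaffold gene of nick repair, was 3.58-fold and 3.89-fold as abundant in GC as in naive B cells of B-KO and WT mice, with no overlap. Polq was at 65.3, 48.2 and 71.3 RPKM in B-KO GC libraries, against 19.4, 16.2 and 12.1 RPKM in B-KO naive libraries, and at 73.6, 75.3 and 46.9 RPKM in WT GC libraries, against 13.3, 13.8 and 12.1 RPKM in WT naive libraries. For Polq the log2 difference was 1.89 in B-KO mice (standard error 0.22, adjusted p = 5.06e-05) and 2.21 in WT mice (standard error 0.22, adjusted p = 1.15e-05). Polq encodes polymerase theta, which joins ends through short repeats, and naive B-KO replicate 1 was its highest naive library. Parp2 was at 301, 267 and 320.2 RPKM in B-KO GC libraries, against 286, 298 and 291 RPKM in B-KO naive libraries, and at 276, 286 and 252 RPKM in WT GC libraries, against 337, 285 and 294 RPKM in WT naive libraries. Parp2 thus differed on the log2 scale by 0.02 in B-KO mice (standard error 0.08, adjusted p = 0.879) and -0.17 in WT mice (standard error 0.08, adjusted p = 0.106). Parp2, a relative of Parp1, overlapped between GC and naive B cells in both genotypes and was called in neither, although quantile normalization gave it a call in WT mice, at -0.31. Lig3 was at 57.5, 52.3 and 57.2 RPKM in B-KO GC libraries, against 59.7, 66.9 and 61.7 RPKM in B-KO naive libraries, and at 62.6, 57.5 and 54.1 RPKM in WT GC libraries, against 69.4, 66.0 and 66.7 RPKM in WT naive libraries. On the log2 scale Lig3 differed by -0.17 in B-KO mice (standard error 0.08, adjusted p = 0.104) and -0.21 in WT mice (standard error 0.08, adjusted p = 0.0455). Lig3, the ligase gene that works with XRCC1, passed in WT mice by a narrow margin that most of the alternatives removed, and 25.1% of its exon bases are shared with the opposite-strand gene Rffl.

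Most break sensing and signaling genes were called higher in GC B cells. Of 7, 5 were called higher and 1 lower in B-KO mice and 5 higher and 2 lower in WT mice, with medians of 0.48 and 0.63. In B-KO mice that is 71.4% higher and 14.3% lower, beside 30.0% and 27.5% of all genes. In WT mice it is 71.4% higher and 28.6% lower, beside 31.7% and 30.2%. Lower calls were thus no more frequent than among genes at large. H2afx was at 1656, 987 and 1519 RPKM in B-KO GC libraries, against 264, 182 and 159.7 RPKM in B-KO naive libraries, and at 1733, 1497 and 1026 RPKM in WT GC libraries, against 145.8, 159.8 and 162 RPKM in WT naive libraries. GC minus naive, the log2 difference of H2afx was 2.77 in B-KO mice (standard error 0.24, adjusted p = 1.29e-05) and 3.15 in WT mice (standard error 0.24, adjusted p = 3.05e-06). H2afx encodes H2AX, the histone variant phosphorylated around a break, and its GC values were 6.86-fold and 9.10-fold the naive values of B-KO and WT mice. Nbn was at 126, 123 and 136 RPKM in B-KO GC libraries, against 68.9, 62.1 and 57.1 RPKM in B-KO naive libraries, and at 131, 143 and 127 RPKM in WT GC libraries, against 54.8, 55.1 and 56.6 RPKM in WT naive libraries. In the limma fit Nbn differed by 1.02 in B-KO mice (standard error 0.08, adjusted p = 1.09e-05) and 1.25 in WT mice (standard error 0.08, adjusted p = 2.12e-06). Nbn encodes NBS1, and the other subunit genes of its complex were also called higher in both genotypes, Mre11a by 0.48 in B-KO and 0.63 in WT mice and Rad50 by 0.32 and 0.48. The Rad50 call in B-KO mice was lost without GC replicate 1, GC replicate 3, naive replicate 2 or naive replicate 3. Topbp1 was at 578, 471 and 563 RPKM in B-KO GC libraries, against 244, 247 and 241 RPKM in B-KO naive libraries, and at 572, 604 and 449 RPKM in WT GC libraries, against 224, 226 and 226 RPKM in WT naive libraries. The fitted difference of Topbp1 (log2) was 1.13 in B-KO mice (standard error 0.11, adjusted p = 1.59e-05) and 1.25 in WT mice (standard error 0.11, adjusted p = 4.60e-06). Topbp1, which encodes the activator of ATR, was called higher in both genotypes, whereas Atr had the largest fall of the list in B-KO mice. Atr was at 53.2, 65.3 and 58.8 RPKM in B-KO GC libraries, against 89.2, 105 and 107 RPKM in B-KO naive libraries, and at 55.0, 63.5 and 53.7 RPKM in WT GC libraries, against 98.6, 99.2 and 110.1 RPKM in WT naive libraries. This gave Atr a log2 difference of -0.76 in B-KO mice (standard error 0.11, adjusted p = 0.000157) and -0.83 in WT mice (standard error 0.11, adjusted p = 6.05e-05). All GC values of Atr were below all naive values of the same genotype, in the opposite direction to Chek1, the substrate gene of ATR. Atm, the kinase gene for double-strand breaks, differed by -0.13 in B-KO mice (adjusted p = 0.0676) and by -0.14 in WT mice (adjusted p = 0.0497), on either side of the threshold, and most of the alternatives removed the call in WT mice.

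Both checkpoint kinase genes were called higher in both genotypes, and Trp53 in neither. Chek1 was at 117, 106 and 146.3 RPKM in B-KO GC libraries, against 28.2, 19.8 and 11.6 RPKM in B-KO naive libraries, and at 128, 138 and 102 RPKM in WT GC libraries, against 6.98, 11.2 and 15.5 RPKM in WT naive libraries. The log2 difference of Chek1 was 2.64 in B-KO mice (standard error 0.31, adjusted p = 5.63e-05) and 3.39 in WT mice (standard error 0.31, adjusted p = 7.34e-06). Chek1, needed by cycling cells to delay mitosis until replication is finished, was 6.20-fold as abundant in GC as in naive B cells of B-KO mice and 10.9-fold in WT mice. Chek2 was at 78.6, 69.2 and 90.1 RPKM in B-KO GC libraries, against 59.6, 50.6 and 47.7 RPKM in B-KO naive libraries, and at 92.2, 96.6 and 68.5 RPKM in WT GC libraries, against 52.4, 45.5 and 58.5 RPKM in WT naive libraries. For Chek2 the log2 difference was 0.58 in B-KO mice (standard error 0.15, adjusted p = 0.0078) and 0.70 in WT mice (standard error 0.15, adjusted p = 0.00228). Chek2, the kinase gene downstream of ATM, was called higher in both genotypes with a log2 difference below 1. Trp53, which encodes p53, was at 444 ± 38.4 (SD, n = 3) RPKM in B-KO GC and 404 ± 16.1 (SD, n = 3) RPKM in B-KO naive libraries, and at 474 ± 40.6 (SD, n = 3) RPKM in WT GC and 422 ± 32.1 (SD, n = 3) RPKM in WT naive libraries. Its log2 difference was 0.13 in B-KO mice (95% interval -0.06 to 0.32) and 0.17 in WT mice (95% interval -0.02 to 0.36). Without B-KO GC replicate 2 and WT GC replicate 3 Trp53 was called higher in both genotypes, by 0.21 in B-KO mice (adjusted p = 0.0416) and 0.22 in WT mice (adjusted p = 0.03002). Without the 3 GC libraries that hold Y-linked RNA it was called higher in WT mice. The 2 genes of p53 antagonists went in opposite directions. Mdm2 was at 344, 385 and 374 RPKM in B-KO GC libraries, against 259, 269 and 246 RPKM in B-KO naive libraries, and at 333, 347 and 369 RPKM in WT GC libraries, against 247, 241 and 237 RPKM in WT naive libraries. Mdm2 thus differed on the log2 scale by 0.51 in B-KO mice (standard error 0.06, adjusted p = 7.28e-05) and 0.53 in WT mice (standard error 0.06, adjusted p = 3.49e-05). Mdm2, itself induced by p53, encodes the ligase that degrades p53 and was higher in every GC library. Mdm4 was at 419, 439.6 and 434 RPKM in B-KO GC libraries, against 576, 584 and 499.5 RPKM in B-KO naive libraries, and at 444, 435 and 476 RPKM in WT GC libraries, against 549, 601 and 535 RPKM in WT naive libraries. On the log2 scale Mdm4 differed by -0.36 in B-KO mice (standard error 0.07, adjusted p = 0.00172) and -0.31 in WT mice (standard error 0.07, adjusted p = 0.00324). Mdm4, which encodes an inhibitor of p53 activity, was lower in every GC library than in any naive library of the same genotype. Pseudogenes named after Trp53, Mdm4 and Topbp1 exist in the annotation, and reads that match them equally well may have been placed in either.

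**Figure D3:**
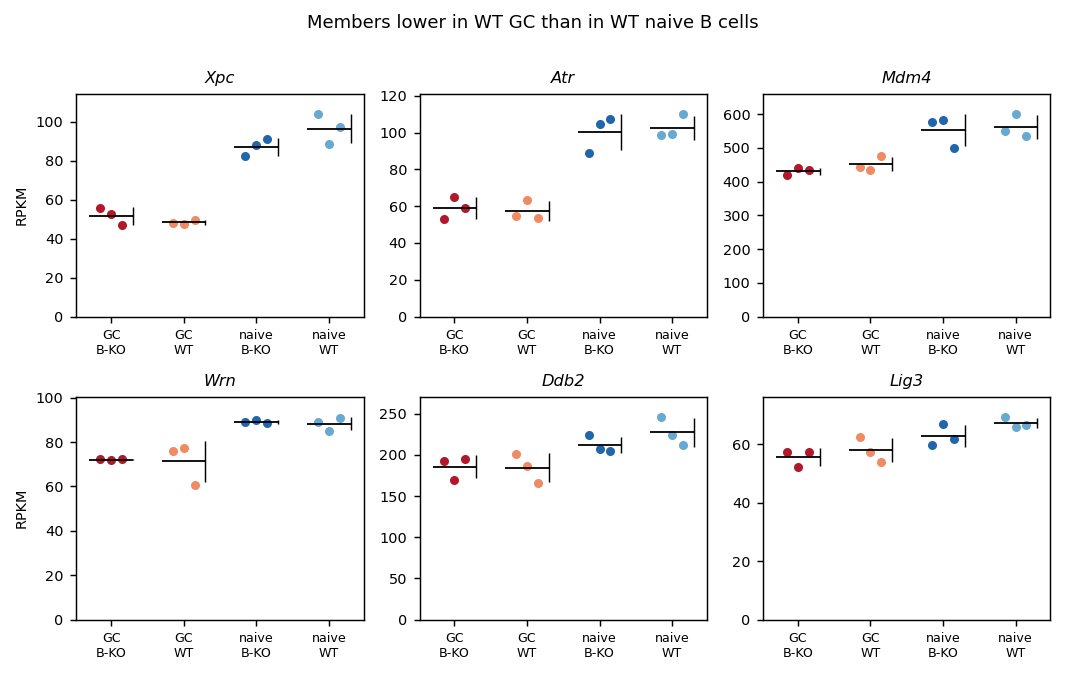
RPKM on a linear axis from 0 for the 6 members with the largest called fall in GC B cells of WT mice, in the 3 libraries of GC B-KO, GC WT, naive B-KO and naive WT B cells. Points are libraries 1 to 3 from left to right, horizontal lines are means and vertical lines span 1 SD on either side. For Xpc the GC points lie between 46.8 and 55.6 RPKM and the naive points between 82.3 and 104 RPKM.

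The 53BP1 axis protects ends from resection and thereby favors end joining during class switching. Rif1 was at 174, 167 and 198 RPKM in B-KO GC libraries, against 109, 115 and 108 RPKM in B-KO naive libraries, and at 197, 207 and 175 RPKM in WT GC libraries, against 109, 103 and 118 RPKM in WT naive libraries. GC minus naive, the log2 difference of Rif1 was 0.69 in B-KO mice (standard error 0.09, adjusted p = 8.00e-05) and 0.81 in WT mice (standard error 0.09, adjusted p = 1.88e-05). Rif1 and Mad2l2, which encode effectors recruited through 53BP1, were both called higher in both genotypes. Mad2l2 was at 119.7, 108 and 120.5 RPKM in B-KO GC libraries, against 94.1, 72.0 and 78.6 RPKM in B-KO naive libraries, and at 127, 114 and 110 RPKM in WT GC libraries, against 70.8, 72.4 and 66.6 RPKM in WT naive libraries. In the limma fit Mad2l2 differed by 0.51 in B-KO mice (standard error 0.10, adjusted p = 0.00137) and 0.73 in WT mice (standard error 0.10, adjusted p = 1.00e-04). Trp53bp1 was at 106, 108 and 108 RPKM in B-KO GC libraries, against 109, 108 and 108 RPKM in B-KO naive libraries, and at 106, 109 and 105 RPKM in WT GC libraries, against 110.4, 108 and 109 RPKM in WT naive libraries. Trp53bp1, the gene of 53BP1 itself, lay in the same narrow range in all 4 groups, with a log2 difference of -0.02 in B-KO mice (95% interval -0.14 to 0.10) and -0.03 in WT mice (95% interval -0.15 to 0.09). Its exons share 15.04% of their bases with the opposite-strand gene Tubgcp4.

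Mismatch repair corrects copying errors and translesion polymerases copy past damaged bases, and their genes were called higher in both genotypes with all 5 of their members. Among all genes tested 30.0% were called higher in B-KO mice and 31.7% in WT mice. Msh3 was at 262, 207 and 261 RPKM in B-KO GC libraries, against 95.8, 105 and 98.6 RPKM in B-KO naive libraries, and at 244, 253 and 198 RPKM in WT GC libraries, against 90.5, 94.1 and 101 RPKM in WT naive libraries. The fitted difference of Msh3 (log2) was 1.27 in B-KO mice (standard error 0.11, adjusted p = 1.34e-05) and 1.27 in WT mice (standard error 0.11, adjusted p = 5.69e-06). Msh3, like Bard1, Brca2 and Topbp1 a gene whose promoter window with an E2F-type match is printed above, encodes a subunit of a mismatch sensor, and Pms2 an endonuclease subunit. Pms2 was at 121, 103 and 129 RPKM in B-KO GC libraries, against 81.2, 83.3 and 68.6 RPKM in B-KO naive libraries, and at 125, 116 and 100.5 RPKM in WT GC libraries, against 83.4, 74.3 and 75.6 RPKM in WT naive libraries. This gave Pms2 a log2 difference of 0.59 in B-KO mice (standard error 0.11, adjusted p = 0.00107) and 0.54 in WT mice (standard error 0.11, adjusted p = 0.00171). Rev1 was at 327, 249 and 352 RPKM in B-KO GC libraries, against 117, 119 and 105 RPKM in B-KO naive libraries, and at 320.4, 342 and 313 RPKM in WT GC libraries, against 98.3, 104 and 113 RPKM in WT naive libraries. Rev1 encodes a deoxycytidyl transferase that bypasses lesions, and its GC values lay above every naive value, although 26.6% of its exon bases are shared with the opposite-strand gene Eif5b. The log2 difference of Rev1 was 1.42 in B-KO mice (standard error 0.12, adjusted p = 1.09e-05) and 1.62 in WT mice (standard error 0.12, adjusted p = 2.43e-06). Rev3l was at 214, 164 and 206 RPKM in B-KO GC libraries, against 94.5, 88.9 and 86.9 RPKM in B-KO naive libraries, and at 227, 217 and 189 RPKM in WT GC libraries, against 95.6, 90.7 and 93.4 RPKM in WT naive libraries. For Rev3l the log2 difference was 1.09 in B-KO mice (standard error 0.10, adjusted p = 1.56e-05) and 1.16 in WT mice (standard error 0.10, adjusted p = 5.44e-06). Rev3l encodes the catalytic subunit of polymerase zeta, and Rad18 the ligase that ubiquitinates the sliding clamp PCNA to admit these polymerases. Rad18 was at 93.4, 77.3 and 106 RPKM in B-KO GC libraries, against 55.2, 46.4 and 40.6 RPKM in B-KO naive libraries, and at 112, 111 and 56.1 RPKM in WT GC libraries, against 42.0, 40.7 and 35.8 RPKM in WT naive libraries. Rad18 thus differed on the log2 scale by 0.94 in B-KO mice (standard error 0.24, adjusted p = 0.0058) and 1.15 in WT mice (standard error 0.24, adjusted p = 0.00153). WT GC replicate 3 had about the Rad18 level of naive B-KO replicate 1, while the other GC libraries were well above both.

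Nucleotide excision damage recognition was the group with no member called higher. It holds 2 members, and 30.0% of all genes were called higher in B-KO mice and 31.7% in WT mice. Xpc was at 55.6, 52.6 and 46.8 RPKM in B-KO GC libraries, against 82.3, 88.2 and 91.2 RPKM in B-KO naive libraries, and at 48.2, 47.4 and 49.7 RPKM in WT GC libraries, against 104, 88.7 and 97.2 RPKM in WT naive libraries. On the log2 scale Xpc differed by -0.75 in B-KO mice (standard error 0.09, adjusted p = 5.82e-05) and -0.98 in WT mice (standard error 0.09, adjusted p = 6.67e-06). XPC finds helix-distorting damage in the whole genome, and Xpc was the member with the largest fall in WT mice. Ddb2 was at 192, 169 and 195 RPKM in B-KO GC libraries, against 224, 207 and 205 RPKM in B-KO naive libraries, and at 201, 186 and 166 RPKM in WT GC libraries, against 246, 225 and 212 RPKM in WT naive libraries. GC minus naive, the log2 difference of Ddb2 was -0.19 in B-KO mice (standard error 0.09, adjusted p = 0.0831) and -0.30 in WT mice (standard error 0.09, adjusted p = 0.0114). Ddb2, whose protein hands ultraviolet lesions to XPC, was called lower in WT mice alone, a call lost without WT naive replicate 1, and the difference between genotypes was 0.11 (adjusted p = 1). Of its exon bases 23.8% are shared with the opposite-strand gene Acp2.

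Genes of the same pathways outside the list were counted in the same way. Of 60 other break repair and checkpoint genes, 59 were in the table and tested, 36 were called higher and 5 lower in B-KO mice and 35 higher and 7 lower in WT mice, with median log2 differences of 0.57 and 0.57. In B-KO mice 61% were thus higher and 8.47% lower, beside 30.0% and 27.5% of all genes. In WT mice 59.3% were higher and 11.9% lower, beside 31.7% and 30.2%. The largest WT differences were those of Cdc25c, a phosphatase gene of mitotic entry (3.17 in B-KO and 3.91 in WT mice), Dna2, a resection nuclease gene (2.86 and 3.44), and Brip1, a gene of a BRCA1-bound helicase (2.60 and 3.33). Of 25 p53 target genes 22 were tested, 6 were called higher and 4 lower in B-KO mice and 5 higher and 4 lower in WT mice. That is 27.3% higher and 18.2% lower in B-KO mice, beside 30.0% and 27.5% of all genes. In WT mice it is 22.7% higher and 18.2% lower, beside 31.7% and 30.2% of all genes. The list is short, so no difference from all genes is read from these shares. The median log2 differences of the p53 target genes were 0.17 in B-KO and 0.40 in WT mice, where all genes had 0.015 and 0.0054. Sesn1, a stress-induced sestrin gene, was among the lower ones (-2.20 in B-KO and -2.22 in WT mice), and Pidd1, a caspase activator gene (1.80 and 2.04), and Cdkn1a, the gene of the cell cycle inhibitor p21 (0.87 and 1.44), among the higher ones. All 31 proliferation genes were called higher in both genotypes, with medians of 2.62 in B-KO and 3.31 in WT mice, and Mki67, Ccnb2 and Plk1 had the largest WT differences (3.31, 3.35 and 3.50 in B-KO mice and 4.45, 4.32 and 4.25 in WT mice).

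The libraries were made to compare B cells with and without miR-146a, and no member was called between the genotypes. The hairpin of the deleted gene, listed as Mir146, held 0, 0 and 1 reads in the 3 GC B-KO libraries and 0, 4 and 0 reads in the 3 GC WT libraries. It held 0 reads in each naive B-KO library, against 2, 0 and 0 reads in the naive WT libraries. The hairpin is 64 bases long in the table and most WT libraries had no read in it, so these counts are no check of the loss of the mature miRNA. In GC B cells of B-KO against WT mice 0 of 48 members passed in either direction, as did 0.0073% of all genes, which is 1 gene. At an unadjusted p under 0.05 there were 0 members and 776 genes, and limma voom on recovered reads also called 0 members. The median log2 difference of the members was -0.03, where that of all genes was 0.03. In naive B cells 0 members passed, beside 0.0146% of all genes. Unadjusted, 2 members and 624 genes had a p under 0.05, the median of the members was 0.07 and that of all genes 0.02, and voom called 0 members. The 95% intervals of all 48 members lay within a log2 difference of 1 on either side in GC B cells and those of 42 in naive B cells, the exceptions being Rad54l, Chek1, Bard1, Fancd2, Rad54b and Rad51ap1. All 3 B-KO libraries lay above all 3 WT libraries for 0 members in GC B cells, against 6.08% of all genes, and below for 0, against 3.21%. In naive B cells they lay above for 3 members, Bard1, Nbn and Topbp1, against 6.3% of all genes, and below for 0, against 3.08%.

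**Figure D4:**
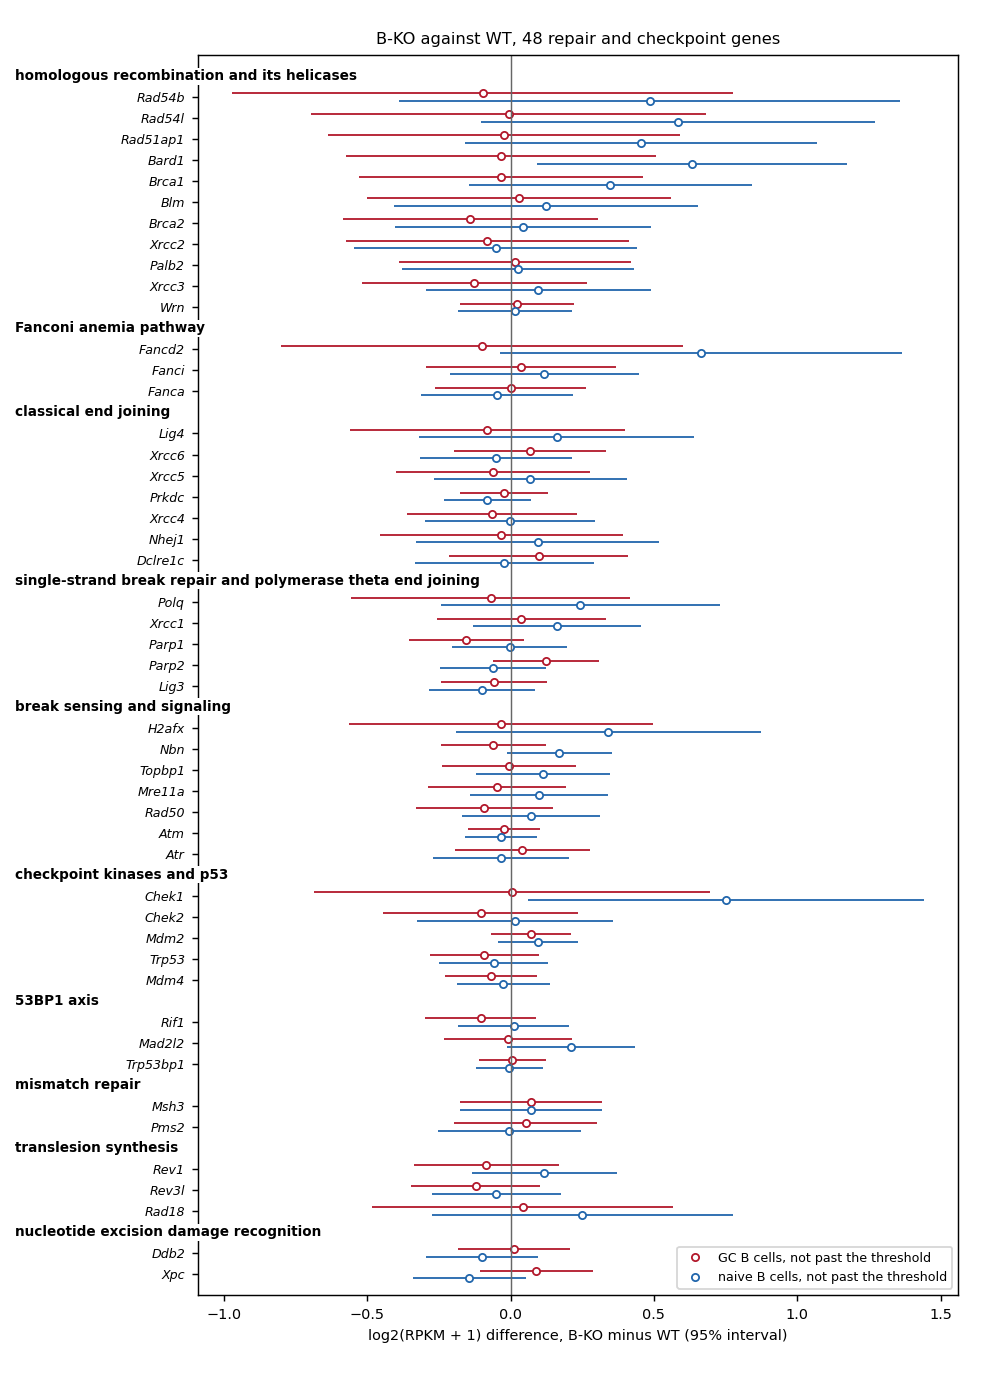
Log2(RPKM + 1) difference of B-KO minus WT on the horizontal axis for the 48 members, grouped by role, in GC B cells (red, upper point of each pair) and naive B cells (blue, lower point). Points are limma estimates from 3 libraries a group, lines are 95% intervals, and open points mark values that did not pass an adjusted p of 0.05, which holds for all of them. GC values run from -0.15 (Parp1) to 0.12 (Parp2) and naive values from -0.14 (Xpc) to 0.75 (Chek1).

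The members of smallest p in naive B cells were Bard1, Chek1 and Fancd2, all 3 among the largest risers in GC B cells. Bard1 was at 23.6, 17.5 and 13.4 RPKM in B-KO against 9.17, 12.1 and 12.2 RPKM in WT naive libraries, a log2 difference of 0.63 (standard error 0.24, unadjusted p = 0.0256, adjusted p = 1). Chek1 was at 28.2, 19.8 and 11.6 RPKM in B-KO against 6.98, 11.2 and 15.5 RPKM in WT naive libraries, a difference of 0.75 (unadjusted p = 0.036, adjusted p = 1), and Fancd2 differed by 0.66 (unadjusted p = 0.0611, adjusted p = 1). Replicate 1 was the highest and replicate 3 the lowest B-KO library for each, and replicate 3 lay within the WT range for Chek1 and Fancd2 and just above it for Bard1. The same order held for the proliferation genes, whose medians per library, relative to the WT mean, reached 1.15, 0.60 and -0.01 for the B-KO naive libraries, against -0.30, 0.06 and 0.20 for the WT naive libraries. For the 33 members called higher in WT GC B cells these medians reached 0.22, 0.15 and -0.02 for the B-KO naive libraries, against -0.01, -0.01 and 0.03 for the WT naive libraries. The 33 were picked with the WT libraries that also form the reference, which can shift B-KO values relative to it. Over all 48 members the medians were 0.11, 0.10 and -0.04 for B-KO, against -0.01, -0.02 and 0.03 for WT naive libraries. Without B-KO replicates 1 and 2 the naive differences were 0.25 for Bard1, 0.10 for Chek1 and -0.02 for Fancd2, and the median of the 48 members was -0.04. This leaves replicate 3 as the only B-KO naive library. The omitted libraries held the higher B-KO values of these 3 genes, so smaller differences followed from the choice itself. Whether GC or dividing cells inside the B220+ gate account for the naive values was not tested.

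In GC B cells the members of smallest p were Parp1, Parp2 and Rif1. Parp1 was at 1102, 954 and 1210.3 RPKM in B-KO against 1304, 1217 and 1106 RPKM in WT GC libraries, a log2 difference of -0.15 (unadjusted p = 0.119, adjusted p = 0.896). Parp2 differed by 0.12 (adjusted p = 0.911) and Rif1 by -0.10 (adjusted p = 0.927), and B-KO and WT libraries overlapped for all 3. The spread among GC libraries of 1 genotype was wider than these differences for the members called higher, whose medians relative to the WT mean reached 0.01, -0.29 and 0.15 for B-KO, against 0.12, 0.16 and -0.27 for WT. Over all 48 members, a set not picked by these libraries, the medians were 0.003, -0.218 and 0.106 for B-KO, against 0.106, 0.123 and -0.175 for WT. B-KO replicate 2 was the lowest of its group for 40 of 48 members and WT replicate 3 for 42, and the proliferation medians of the same libraries reached 0.06, -0.35 and 0.19 for B-KO, against 0.23, 0.26 and -0.47 for WT. How often these libraries were lowest over all genes was not counted, so the ranks are not read as particular to the members. The median difference of the members was 0.07 without B-KO GC replicate 2, against -0.13 without WT GC replicate 3, and it was also positive without WT GC replicate 1 (0.03) or replicate 2 (0.05), so that single libraries set its sign.

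**Figure D5:**
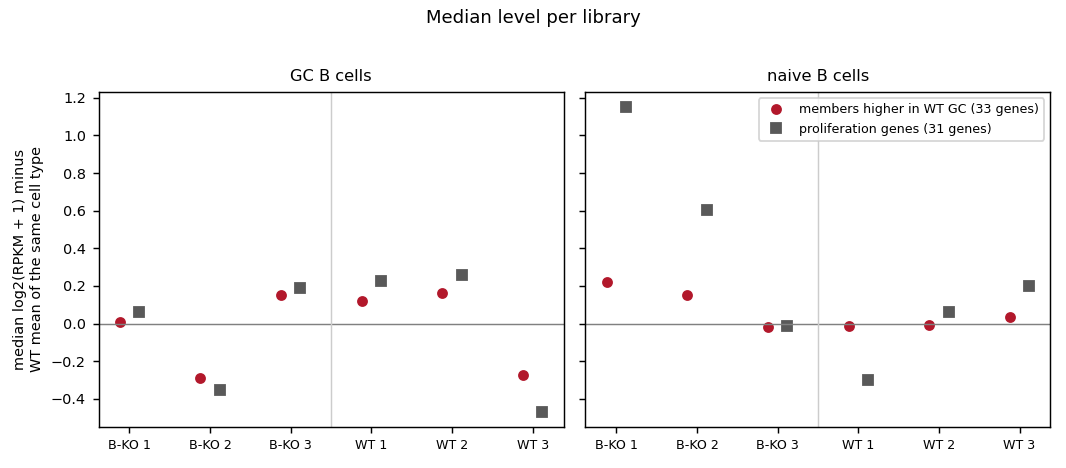
Median log2(RPKM + 1) per library minus the WT mean of the same cell type, on the vertical axis, for the 33 members called higher in WT GC B cells (red circles) and 31 proliferation genes (gray squares), in the B-KO and WT libraries of GC B cells (left) and naive B cells (right). B-KO replicate 2 (-0.29 and -0.35) and WT replicate 3 (-0.27 and -0.47) are the low GC libraries, and naive B-KO replicates 1 and 2 are the high naive libraries for both sets. The 33 members were picked with the WT libraries that also form the reference.

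The change between GC and naive B cells was also compared between genotypes, as B-KO minus WT. No member was called, beside 0.0219% of all genes, which is 3 genes, and 0 members and 462 genes had an unadjusted p under 0.05, while voom called 0 members. The difference was negative for 35 of 48 members, which were thus less raised or more lowered in B-KO mice, with a median of -0.12 where all genes had 0.01. It was positive for the other 13 members, beside 51.3% of all genes. Nbn (-0.23, unadjusted p = 0.0777), Bard1 (-0.67, unadjusted p = 0.0809) and Xpc (0.23, unadjusted p = 0.0908) had the smallest p, with adjusted p = 1 for each. The median ran from -0.22 without WT GC replicate 3 to -0.03 without B-KO GC replicate 2 with 1 library left out. It was -0.05 without WT GC replicate 2, -0.06 without WT naive replicate 2, -0.07 without WT GC replicate 1 or naive B-KO replicate 1 and -0.18 without B-KO GC replicate 3. Without naive B-KO replicates 1 and 2 together, which leaves replicate 3 alone in that group, it was 0.02. Without the 3 GC libraries that hold Y-linked RNA it was -0.06.

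Because the microRNA was the deleted gene, its target letters were looked up in the members. Mature miR-146a-5p (RefSeq, GRCm38.p6, chr11:43374435-43374456, minus strand) is printed with its seed, bases 2 to 8, in capitals. The match of that seed, AGTTCTC, was searched on the transcribed strand in the longest annotated 3′ untranslated region of each protein-coding gene (GENCODE vM21, GRCm38). It occurred in 9 of 48 members (18.8%), against 2345 of 21020 genes (11.2%), and the regions had a median length of 778 bases in the members and 961 bases in all genes. The 9 are Rad51ap1, Blm, Fanca, Parp1, Lig3, Mre11a, Rad50, Chek1 and Mdm4, and in 3 of them, Rad51ap1, Mre11a and Mdm4, the match lies beyond the end of the transcript counted in the table. In the others it lies within the genomic span of that transcript, and its exons were not compared. The Fanca match (chr8:123302173-123302202, minus strand) belongs to transcript Fanca-202, whereas the counted transcript has its 3′ end at 123268244. The sites of Parp1 and Chek1, the members of smallest p in GC and second smallest in naive B cells, are shown with the match in capitals.
mmu-miR-146a-5p: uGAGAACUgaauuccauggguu
Parp1 site, chr1:180601209-180601238, plus strand: cacccaaagggctatAGTTCTCaattaaaa
Chek1 site, chr9:36710210-36710239, minus strand: caatagttgttgaagAGTTCTCttcccatt
The median B-KO minus WT log2 difference was -0.05 for the 9 members with a match and -0.02 for the other 39 in GC B cells, and 0.07 and 0.07 in naive B cells.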

How the data were processed

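Sorted B cells were profiled by RNA sequencing in 12 libraries. After trimming and masking, the authors used STAR for alignment (2.2.0c in the submitters' processing notes, which name the builds mm9 and mm10; the table's header names mm10) and counted them with HOMER. The deposited RPKM values are per RefSeq transcript, counted over exons on both strands and scaled to 10000000 per library. The labels name total RNA and the methods poly-A RNA.

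Genes that reached an RPKM of 1 in 3 or more libraries (13704 of 24063) were tested with limma 3.58.1 (R 4.3.3) on log2(RPKM + 1), with 4 group means and 8 residual degrees of freedom, after tests on simulated data. Folds on this scale understate changes of low genes. RPKM, length and read value gave whole reads (within 0.1), which entered limma voom. The alternatives were pseudocounts of 0.25 and 5, other filters, all transcripts, 2 other scalings, fits of only the groups compared, a replicate block, voom and each library left out. Another 3, which leave out libraries that stand apart, were chosen after seeing the data. Values in every library are given for up to 3 members per role group by WT difference, up to 6 of those called lower, the 3 of smallest p per genotype comparison and the 3 of highest and lowest mean. Brca1 and Dclre1c were added after their values were seen. The members and lists were chosen with earlier results of these data known. Some genes, cell type markers among them, are not reported here and were left out of the marker sums.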

Additional observations from a re-analysis of the deposited data

How the results depend on the processing

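Over 26 settings the members called higher numbered 30 to 35 in B-KO mice and 33 to 35 in WT mice, and those called lower 2 to 6 in B-KO mice and 4 to 8 in WT mice. With 1 library left out they numbered 31 to 34 higher and 4 to 5 lower in B-KO mice and 33 to 34 higher and 4 to 6 lower in WT mice, and 0 members were called in any comparison of B-KO with WT. The count of 4 lower in WT mice came without WT naive replicate 1, where Lig3, Atm and Ddb2 were lost, and the count of 2 lower in B-KO mice without naive B-KO replicates 1 and 2, where Wrn and Mdm4 were lost. Those 2 libraries left out also took Fanca, Prkdc and Rad50 from the members called higher. The small difference of Parp2 in B-KO GC against naive B cells (0.02) turned to -0.14 with quantile normalization, -0.0099 with voom and, with 1 library left out, ran from -0.0412 without B-KO GC replicate 3 to 0.0883 without B-KO GC replicate 2, and that of Fancd2 in naive B-KO against WT B cells to -0.0169 without naive B-KO replicates 1 and 2; the cause was not tested. Over all genes, B-KO against WT naive B cells gave 32 genes higher and 1 lower without naive B-KO replicate 3, beside 2 higher in the fit of all libraries.

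Replicate numbers were not treated as pairs. Correlations of same-numbered libraries, taken on deviations from the group means, ran from -0.57 to 0.15. With 3 libraries a group such correlations cannot exclude pairing. With the replicate block 32 members were called higher and 4 lower in B-KO mice (Prkdc lost) and 33 higher and 5 lower in WT mice (Lig3 and Atm lost), and 0 members in the comparisons of B-KO with WT. Antisense reads and reads of overlapping genes cannot be separated in these values, and with 3 libraries a group only differences well over the spread could pass.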
